A study of Mus musculus with 2 samples.

Results

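The nuclei described here are the 350 nuclei of an E7.0 mouse embryo library with the highest combined RNA level of 7 genes: Sfrp5, Gckr, Fzd5, Foxq1, Kitl, Hkdc1 and Abca4. Of 15341 barcodes, 11605 held between 3000 and 30000 RNA molecules (UMIs, counts of uniquely tagged transcripts) and at least 2000 peak counts. Each of these received a score, the mean over the 7 genes of ln(1 + UMIs per 10000), and the 350 highest scores were taken as members, with ties settled by barcode order. The members were compared with the other 11255 nuclei in the same depth range and with the 3102 of those that held at least 3 UMIs of Cubn, the endocytic receptor cubilin of absorptive visceral endoderm.

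The study profiled nuclear RNA and chromatin accessibility in the same nuclei with the 10x multiome assay, using embryos at E7.0 that were pooled, dissociated with TrypLE and reduced to nuclei before sequencing on an Illumina NovaSeq instrument. The title, age and protocol fields name E7.0 embryos, whereas other fields name goblet cells, the eighth section of the small intestine (RNA) or the distal colon (accessibility), and the strain RedMUC298trTg. The 8 goblet and intestinal genes examined summed to 3.41 CPM (counts per 1e6 counts of the group) in the members, and to 2.85 CPM in the other nuclei. Of the 19 UMIs in members 10 were of Lgals4, and the mucin gene Muc2 and the trefoil gene Tff3 had 0. There was 1 library of each assay from pooled embryos, so no test between groups was possible. Ratios are given with 95% intervals that cover counting error only and say nothing of how embryos or libraries vary. The median member held 15734 UMIs and 18435 peak counts, against 11249 and 19512 in the other nuclei and 13207 and 19322 in the Cubn nuclei. Doublet calls made up 2.29% of the members, 6.35% of the other nuclei and 12.8% of the Cubn nuclei.

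The visceral endoderm is the epithelium that wraps the early mouse embryo. Over the extraembryonic region it is columnar and absorptive, taking up maternal protein through the receptors cubilin, amnionless and megalin, while over the epiblast it is flatter and acts as a signalling tissue. On the future head side the anterior visceral endoderm secretes inhibitors of Wnt, Nodal and BMP signalling, among them Dkk1, Sfrp1, Sfrp5, Cer1 and Lefty1, which keep primitive streak formation away from the anterior epiblast. Transcription factors such as Otx2, Lhx1, Hhex, Gsc and the Foxa family act in this tissue.

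Of the 7 marker genes, 6 had a promoter in the RefSeq table for GRCm38.p6, each running from 250 bases before to 50 after the annotated start. The 5 printed here carry the chromatin results below, in which the promoter regions of Hkdc1, Gckr and Abca4 were more accessible in members than in the other nuclei by over 2-fold and those of Sfrp5 and Fzd5 were not. Capitals mark matches, on either strand, to AGATAA (core of the GATA factors), TAATCC (bicoid-type homeodomain core, as for Otx2 and Gsc) or TAATTA (homeodomain core, its own reverse complement). TGTTTAC (forkhead core) and CAAAGTCCA (HNF4 core) were also searched on both strands. TAATCC and TAATTA share the letters TAAT.
Sfrp5 promoter, chr19:42202203-42202502, minus strand: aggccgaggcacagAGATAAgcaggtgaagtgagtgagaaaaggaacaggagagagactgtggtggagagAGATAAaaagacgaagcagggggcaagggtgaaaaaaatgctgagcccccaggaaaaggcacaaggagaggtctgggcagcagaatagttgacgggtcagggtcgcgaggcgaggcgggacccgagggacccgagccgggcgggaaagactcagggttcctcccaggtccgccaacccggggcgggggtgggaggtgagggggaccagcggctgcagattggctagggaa
Gckr promoter, chr5:31297313-31297612, plus strand: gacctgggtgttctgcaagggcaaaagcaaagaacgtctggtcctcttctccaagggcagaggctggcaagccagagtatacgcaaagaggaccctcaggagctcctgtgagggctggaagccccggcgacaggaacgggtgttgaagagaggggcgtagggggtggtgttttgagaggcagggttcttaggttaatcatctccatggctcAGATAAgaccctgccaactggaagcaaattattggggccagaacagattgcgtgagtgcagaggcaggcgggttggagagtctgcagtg
Hkdc1 promoter, chr10:62422408-62422707, minus strand: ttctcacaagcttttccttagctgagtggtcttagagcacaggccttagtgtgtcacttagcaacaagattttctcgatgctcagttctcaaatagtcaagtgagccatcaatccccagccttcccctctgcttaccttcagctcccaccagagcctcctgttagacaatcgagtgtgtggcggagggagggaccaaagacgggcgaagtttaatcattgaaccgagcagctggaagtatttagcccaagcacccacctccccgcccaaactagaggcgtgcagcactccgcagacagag
Abca4 promoter, chr3:122044210-122044509, plus strand: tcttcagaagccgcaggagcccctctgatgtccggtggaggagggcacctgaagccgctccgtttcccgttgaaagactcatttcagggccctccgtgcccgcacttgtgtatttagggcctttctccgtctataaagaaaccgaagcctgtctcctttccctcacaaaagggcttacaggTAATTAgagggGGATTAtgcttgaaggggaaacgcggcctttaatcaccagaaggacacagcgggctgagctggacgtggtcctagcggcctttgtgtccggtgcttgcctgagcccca
Fzd5 promoter, chr1:64737701-64738000, minus strand: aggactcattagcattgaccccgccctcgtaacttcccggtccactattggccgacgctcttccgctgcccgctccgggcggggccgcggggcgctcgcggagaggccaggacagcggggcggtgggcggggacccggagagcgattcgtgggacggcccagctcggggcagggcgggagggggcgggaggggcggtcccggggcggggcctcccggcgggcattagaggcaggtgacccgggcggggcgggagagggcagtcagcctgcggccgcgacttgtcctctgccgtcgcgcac

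Sfrp5 held AGATAA 236 and 180 bases before its start, and Gckr held it 39 bases before. Abca4 held TAATTA at 69 and the reverse complement of TAATCC at 58 bases before its start. The Hkdc1, Fzd5 and Kitl windows held none of the 5 motifs. Across all 27025 promoters in the table the shares with a match were 11.4% for AGATAA, 7.16% for TAATCC, 5.31% for TAATTA, 3.55% for TGTTTAC and 0.477% for CAAAGTCCA. The Fzd5 window was the richest in G and C of the 6, at 75.7% with 38 CpG dinucleotides, and the Hkdc1 window was the poorest, at 52.3% with 9. A match is a description of letters and does not show a bound site, and the lack of one says only that these letters are not in this window.

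The score that chose the members ran from 0.689 to 2.07 with a median of 0.886. The last nuclei inside scored 0.692 and 0.689 and the first outside 0.689 and 0.688, so the boundary lies on a continuous slope and not at a gap. All 7 genes were detected in 43 members, 6 in 117, 5 in 119, 4 in 62 and 3 or fewer in 9. Among the other nuclei 57.3% had no UMI of any of the 7.

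Because these genes chose the members, their levels are given as a description. Sfrp5, a secreted Wnt inhibitor, stood at 151 CPM in members, 5.02 in the other nuclei and 10.3 in the Cubn nuclei. Single members ranged from 0 to 17 Sfrp5 UMIs with a median of 1, and 250 of 350 had at least 1. Fzd5, a Wnt receptor, ranged from 0 to 31 UMIs with a median of 5. Kitl, the ligand of the Kit receptor, had the widest range, from 0 to 64 UMIs with a median of 6. Hkdc1, a hexokinase-like protein, had a median of 4 UMIs and was detected in 327 members. Foxq1, a forkhead transcription factor, was detected in 251 members. Gckr, a regulator of glucose metabolism, and Abca4, a transporter of retinoid lipids, were each detected in 211. None of the 7 was detected in every member, and a count of 0 in a nucleus does not show that it lacks the gene's RNA.

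Each marker was then read in nuclei chosen without it, by ranking on the other 6. The 350 nuclei ranked without Sfrp5 shared 315 members and held Sfrp5 at 113 CPM against 6.58 in the rest, a ratio of 17.1 (15.5 to 19.0). At least 1 Sfrp5 UMI was found in 62.0% of them and in 4.64% of the rest. The same reading gave 31.5-fold for Gckr (26.9 to 37.0), 19.0-fold for Foxq1, 15.8-fold for Abca4, 15.4-fold for Fzd5 and 14.4-fold for Hkdc1. Kitl had the smallest ratio, 8.14 (7.76 to 8.53). Each of the 7 genes was thus higher in nuclei picked by the other 6, although the 6 were themselves grouped with earlier results of these data known. Members were chosen on the sum of these log levels, so correlations among them are a description. Across the 350 members the correlation was -0.559 for Fzd5 with Kitl and -0.439 for Sfrp5 with Kitl. Sfrp5 with Fzd5 gave 0.292.

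Accessibility was not used to choose the members, and it placed nearly all of them together. The 11605 nuclei were grouped on peak counts alone into 17 clusters. Cluster 9, with 544 nuclei, held 337 of the 350 members, or 96.3% (93.7 to 98.0), and members made up 61.9% of it. Of the remainder, 9 were in cluster 10 and 1 each in clusters 1, 7, 11 and 14. Among the 15 nearest neighbours of a member in accessibility, 73.8% on average were members, against 0.932% for the other nuclei, while members made up 3.02% of all nuclei.

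The RNA of the clusters set the members' neighbourhood apart from the other endoderm. Cluster 9 held visceral endoderm genes at 10166 CPM in sum, against 11014 in cluster 4 and 15773 in cluster 10, and endocytic genes at 1945 CPM against 10565 in cluster 4 and 9438 in cluster 10. Its anterior visceral endoderm genes summed to 2166 CPM, against 134 in cluster 4 and 328 in cluster 10. Cluster 7 held these anterior genes at a like sum, 2059 CPM, but visceral endoderm genes at only 1332 CPM, near the 1240 of cluster 1, which had the epiblast genes at 2835 CPM. Sfrp5 stood at 113 CPM in cluster 9, 28.0 in cluster 10 and 6.33 in cluster 7. The plot of 4 gene lists by cluster shows all 17.

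**Figure D1:**
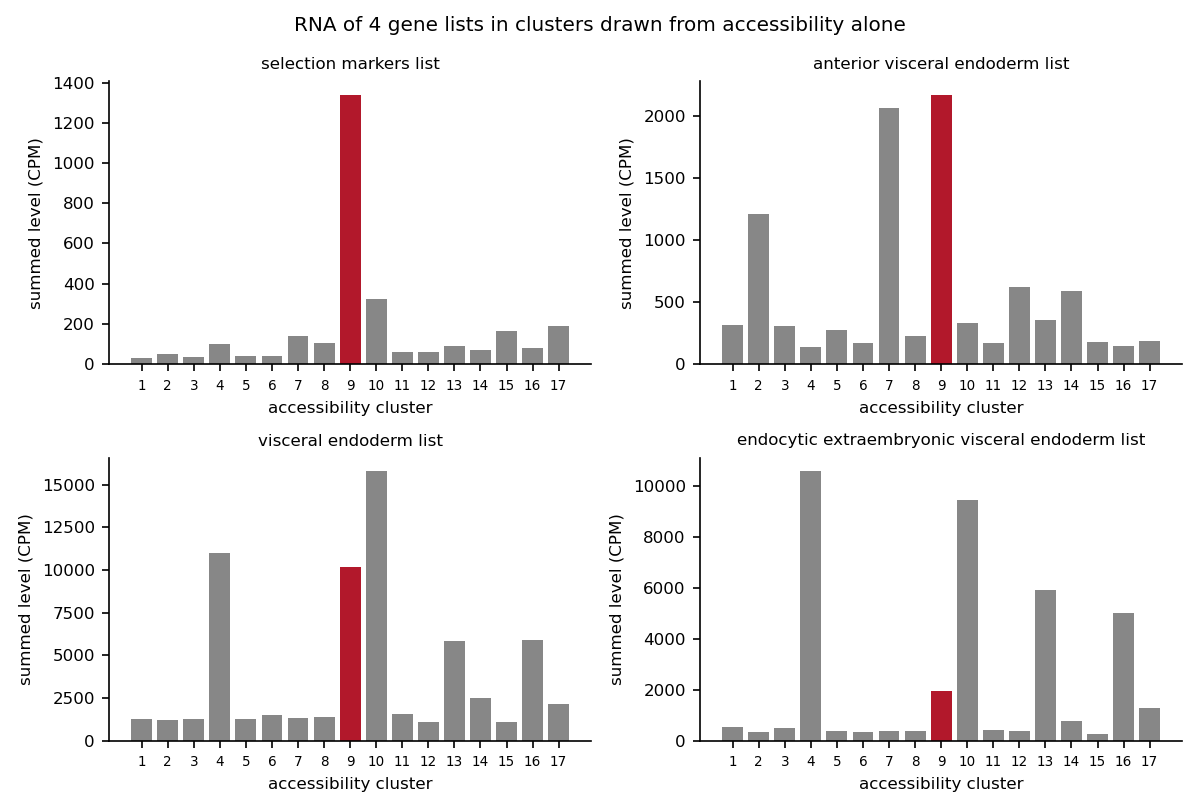
Summed RNA level (CPM) of the 7 selection markers and of the visceral endoderm, endocytic and anterior visceral endoderm lists in each of the 17 accessibility clusters, with cluster 9 in red. Cluster 9 holds the markers at 1339 CPM and the anterior genes at 2166 CPM, while its endocytic genes, at 1945 CPM, lie below those of cluster 4 at 10565 CPM.

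Cluster 9 also held 207 nuclei that were not members, with a median score of 0.534, and 202 of them had at least 1 marker UMI. Of these 207, 48 were doublet calls. Compared with them, the 337 members in the cluster had Cubn at 816 CPM against 1587 and Lefty1 at 192 CPM against 34.3, 5.61-fold higher. Cer1 was 2.66-fold higher and Lhx1 1.47-fold higher in the members. Across the 15 clusters of at least 50 nuclei, the genes whose level ran most like that of Sfrp5, by Pearson correlation of CPM, were Foxq1 (0.991), Abca4 (0.988), Itpr2 (0.985), Pga5 (0.985), Rfx6 (0.979), Chst15 (0.974), Palld (0.971), Dkk1 (0.970), Hkdc1 (0.968) and Fzd5 (0.967). These points share 1 library, and most of the variation lies between cluster 9 and the other clusters.

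The label was read beside marker genes that did not choose the members. These lists were drawn up with earlier results of these data known, so they are no independent check. Visceral endoderm genes summed to 10255 CPM in members, 3533 in the other nuclei and 8440 in the Cubn nuclei. Against the other nuclei 9 of 11 were higher by at least 2-fold and none lower, where 6.6% of all 11267 tested genes were higher and 11.6% lower. A gene counts as tested when the mean CPM of the groups is at least 5. Against the Cubn nuclei only Spink1, a secreted trypsin inhibitor, passed 2-fold among these 11, where 4.86% of 11100 tested genes were higher and 8.77% lower.

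Spink1 stood at 2955 CPM in members, 523 in the other nuclei and 993 in the Cubn nuclei, 2.98-fold above the latter (2.92 to 3.03). Ttr, which carries thyroid hormone and retinol-binding protein, was at 660 CPM in members and 727 in the Cubn nuclei. Apob, the scaffold of lipoprotein particles, was at 1432 CPM against 1612. Afp, alpha-fetoprotein, was at 287 CPM against 311. Members and Cubn nuclei therefore lay within 2-fold of each other in Ttr, Apob and Afp, but not in Spink1. The Cubn nuclei were a mixed group, described below. Clusters 4 and 10 held visceral endoderm genes at 11014 and 15773 CPM, above the 10255 of members and the 8440 of the Cubn nuclei. The wider list of apolipoprotein and plasma protein genes shares these 4 genes and others with the visceral endoderm list. In it 8 of 16 were higher than in the other nuclei and none lower, beside 6.6% and 11.6% of all genes. Against the Cubn nuclei 1, again Spink1, was higher and 4 were lower, beside 4.86% and 8.77% of all genes.

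The endocytic genes were lower than in the Cubn nuclei. Against the other nuclei 2 of 8 were higher and 1 lower, with a median ratio of 1.19. Their sum was 1652 CPM in members and 6526 CPM in the Cubn nuclei, a ratio of 0.253 (0.248 to 0.258), but Cubn defined that group and its own ratio is no result. Without Cubn the list ratio was 0.387, and 5 of 8 genes were at least 2-fold lower with none higher, where 8.77% of all tested genes were lower. Lrp2, which encodes megalin, the partner receptor of cubilin, stood at 41.0 CPM in members and 628 in the Cubn nuclei, 15.3-fold lower. Amn, which carries cubilin to the cell surface, differed little, at 324 CPM against 380. A1cf, an RNA editing cofactor for Apob, had 2 UMIs in all members, 0.359 CPM against 19.9, a ratio of 0.018 (0.00218 to 0.0654). A1cf passed the minimum only through the Cubn nuclei, so its place among the 5 lower genes supports nothing. Apoc2, a cofactor of lipoprotein lipase, was 4.28-fold lower. The list of endocytic receptors and adaptors, which overlaps this one, gave 0 higher and 2 lower among its 7 genes other than Cubn. Within it Lrpap1, the chaperone of megalin, stood at 331 CPM against 195, so the receptor and its chaperone differed in opposite directions.

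Cubn itself was present in most members, with a median of 6 UMIs against 47 in the Cubn nuclei, and 277 members had at least 3. In cluster 1, which had the epiblast genes at the level given above, 57.0% of nuclei held a Cubn UMI at a median depth of 10408 UMIs, against 95.7% of members at 15734. After thinning every nucleus to 3000 UMIs the shares were 24.7% and 71.4%. The part of free RNA in these counts was not tested. The Cubn nuclei lay in several clusters, with 40.5% in cluster 4, 14.9% in cluster 10 and 5.51% in cluster 9. Clusters 1 to 3 and 5 to 8 each held 1.74% to 4.74% of them. In those clusters the median nucleus had 1 Cubn UMI, and visceral endoderm genes summed to 1193 to 1496 CPM. Clusters 13 and 16 held 6.67% and 1.55%, and 74.0% and 70.8% of their nuclei were doublet calls. Ratios to the Cubn nuclei are thus ratios to a mixed group.

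Anterior visceral endoderm genes were higher throughout. The 10 genes summed to 2632 CPM in members against 524 in the other nuclei, 5.02-fold (4.93 to 5.11), and against 386 in the Cubn nuclei, 6.82-fold (6.67 to 6.97). All 10 were at least 2-fold higher in both comparisons, with a median ratio of 9.58 and 10.4, while the median over all tested genes was 0.927 and 0.938. Of all tested genes 6.6% and 4.86% were higher. Hesx1, at 2.33 CPM in the other nuclei and 2.64 in the Cubn nuclei, passed the minimum only through members. In single members the sum ran from 92.3 to 6947 CPM with a median of 2452, against a median of 254 in the other nuclei and 182 in the Cubn nuclei. The plot of gene levels shows these 10 genes and the 9 endocytic genes in the 3 groups.

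**Figure D2:**
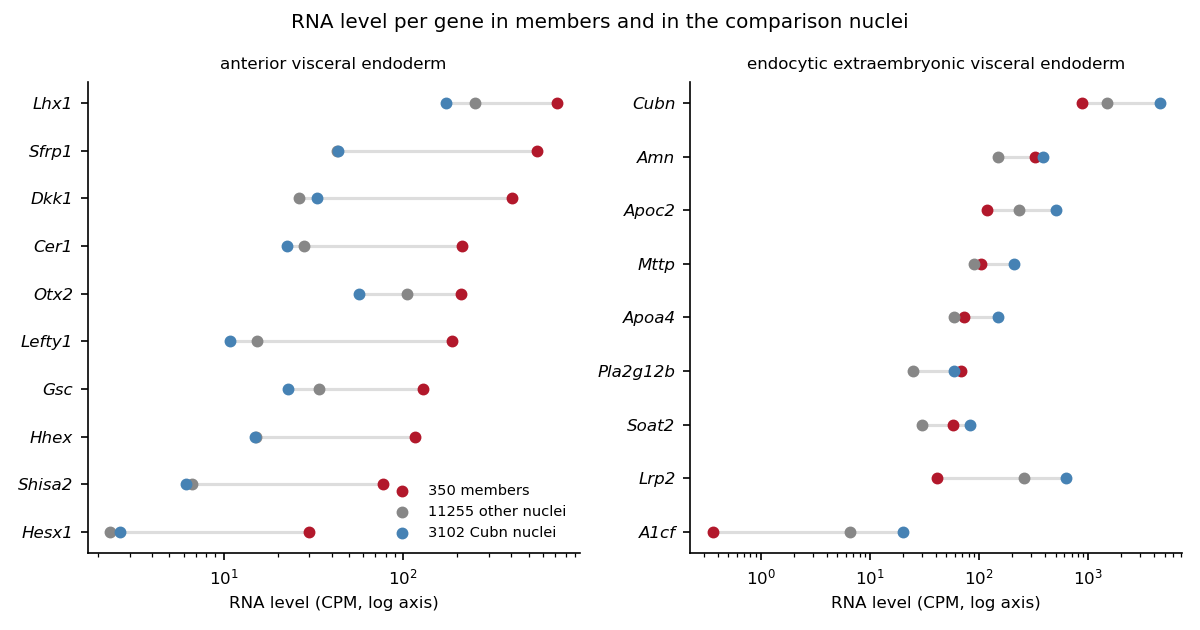
RNA level (CPM, log axis) of 10 anterior visceral endoderm genes and 9 endocytic genes in the 350 members (red), the 11255 other nuclei (grey) and the 3102 Cubn nuclei (blue). The anterior genes lie to the right in members, as for Dkk1 at 401 against 26.4 CPM in the other nuclei, whereas Lrp2 lies to the left, at 41.0 against 628 CPM in the Cubn nuclei.

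Among the secreted inhibitors, Dkk1, which blocks the Wnt co-receptors, stood at 401 CPM in members and 26.4 in the other nuclei, 15.2-fold (14.4 to 16.0). Sfrp1, which binds Wnt proteins, was at 555 CPM against 42.9, 12.9-fold (12.4 to 13.5). Lefty1, an inhibitor of Nodal, was at 186 CPM against 15.3, 12.1-fold (11.3 to 13.1), and against the Cubn nuclei 17.2-fold. Cer1, which binds Nodal and BMP proteins, was at 212 CPM against 28.0, 7.58-fold (7.09 to 8.09). Shisa2, which retains Wnt and FGF receptors inside the cell, was 11.6-fold higher. The 4 secreted inhibitors and Shisa2 were thus all above 7-fold against the other nuclei.

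The transcription factors of the list had a wider spread. Hesx1, a homeodomain repressor, was at 30 CPM against 2.33 in the other nuclei, 12.8-fold (10.6 to 15.5). Hhex, another homeodomain factor of the anterior visceral endoderm, was at 116 CPM against 15.2, 7.61-fold. Gsc was 3.79-fold and Lhx1 2.88-fold higher. Otx2 gave the smallest ratio, 2.0 (1.88 to 2.12), at 209 CPM against 104, and it is also a gene of the epiblast. Otx2 was detected in 83.1% of members and 79.3% of cluster 1 nuclei, and after thinning in 41.1% and 41.3%, so the shares did not set members apart.

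Shares of nuclei with a UMI were read beside cluster 1, a cluster low in visceral endoderm genes, at the median depths of 15734 and 10408 UMIs given above. Cer1 was detected in 70.3% of members and 7.09% of cluster 1, and after thinning in 36.9% and 1.40%. Dkk1 was detected in 70.9% and 10.6%, and after thinning in 44.9% and 2.94%. Lefty1 was found in 37.7% of members and 6.75% of cluster 1, or 24.3% and 1.40% thinned, so most members had no Lefty1 UMI. Of the 10 genes the median member had 7 detected, against 2 in the other nuclei and 2 in the Cubn nuclei. At equal depth, 3 or more were detected in 76.6% of members, 8.39% of other nuclei and 5.90% of Cubn nuclei. No member lacked all 10.

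Genes of the anterior streak, node and definitive endoderm were partly higher: 5 of 8 were higher and 1 lower than in the other nuclei, and 6 higher and 1 lower than in the Cubn nuclei. The shares over all genes were 6.6% and 11.6% in the first comparison and 4.86% and 8.77% in the second, and hold for the lists that follow. Cxcr4, a chemokine receptor, was at 52.1 CPM against 9.13 in the other nuclei, 5.70-fold. Cyp26a1, which degrades retinoic acid, was 5.53-fold and Sox17, an endoderm transcription factor, 4.19-fold higher. The streak factor T was lower, at 5.75 CPM against 41.1. Trh, which encodes a neuropeptide precursor, was 2.99-fold and Foxa2 2.48-fold higher. Sox17, Foxa2 and Cyp26a1 are also known from visceral endoderm, so this list does not by itself separate the members from definitive endoderm.

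Among endoderm transcription factors, 8 of 11 were higher and 1 lower than in the other nuclei, and 6 of 12 were higher and 2 lower than in the Cubn nuclei. Without the marker Foxq1 the counts were 7 of 10 and 5 of 11 higher, beside 6.6% and 4.86% of all genes. Foxa1, under 5 CPM in the other nuclei, passed the minimum there only through members, so the first count supports nothing by itself. Foxa1, a forkhead pioneer factor, stood at 34.7 CPM against 3.85, 9.01-fold (7.60 to 10.6), and Foxa3 was 6.04-fold higher. Hnf4a, a regulator of visceral endoderm genes, was at 61.1 CPM against 69.3 in the Cubn nuclei. Gata4 was lower than in the Cubn nuclei, at 145 CPM against 312, a ratio of 0.467. Foxa1, at 5.11 CPM in the Cubn nuclei, was 6.78-fold above them.

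Markers of other tissues that a nucleus or droplet could hold were read in the same way. Of 8 tested epiblast genes 1 was higher and 5 lower than in the other nuclei, where 6.6% of all genes were higher and 11.6% lower. The higher gene was Fgf5, a growth factor of the epiblast, at 320 CPM against 135, while Pou5f1 was at 48.9 against 121. Of 6 embryonic mesoderm genes all 6 were lower, and of 7 extraembryonic ectoderm genes 6 were lower and none higher. Of 3 tested ectoplacental cone genes 2 were lower and none higher, and of 6 haemato-endothelial genes 4 were lower and 1, Gata1, higher. The mesoderm, ectoderm, ectoplacental and haemato-endothelial lists held genes under 5 CPM in members, Esrrb and Wnt7b among them. Such genes passed the minimum only through the other nuclei, so these counts support nothing by themselves. Decidual genes summed to 4.85 CPM and immune genes to 7.72 CPM in members, against 11.4 and 5.20 in the other nuclei. Of 6 parietal endoderm genes 5 were higher than in the other nuclei. They were the basement membrane genes Lamb1, Sparc, Col4a1 and Col4a2 and the hormone receptor gene Pth1r. Col4a1, a collagen chain, stood at 505 CPM against 163 and 369 in the Cubn nuclei, while Thbd, a defining parietal marker, was at 1.08 CPM with 6 UMIs. Parietal genes summed to 1612 CPM in members and 25031 in cluster 17. The part of RNA from other cells in the members' values was not tested beyond these levels.

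The members' Wnt pathway was described from ligands to targets. Of 5 tested Wnt ligands all 5 were at least 2-fold lower than in the other nuclei, and 4 of 5 than in the Cubn nuclei, beside 11.6% and 8.77% of all genes. The other 6 listed ligands did not pass the minimum, and Wnt5b, Wnt6 and Wnt7b passed it only through the nuclei where they were higher, so these counts support nothing by themselves. The ligand sum was 46.5 CPM in cluster 9, 46.2 in cluster 1 and 40.0 in cluster 4. Wnt3, the ligand linked to streak formation, was at 13.5 CPM against 37.8, a ratio of 0.357 (0.280 to 0.448). Of 9 secreted or membrane Wnt inhibitors 6 were higher and 1 lower than in the other nuclei, and 6 were higher and none lower than in the Cubn nuclei. Without Sfrp5, which chose the members, 5 of 8 were higher in each comparison, beside 6.6% and 4.86% of all genes. The list shares Dkk1, Sfrp1, Cer1 and Shisa2 with genes described above. Cer1 is among the higher genes counted, although it is described above as binding Nodal and BMP proteins. Frzb, another secreted Wnt-binding protein, was at 57.3 CPM against 33.8 in the other nuclei and 21.3 in the Cubn nuclei. Apcdd1, a membrane inhibitor, was the lower one, at 5.21 CPM against 13.7.

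Of 15 receptor genes, the marker Fzd5 among them, 4 were higher and 3 lower than in the other nuclei, and without Fzd5 3 of 14 were higher. Fzd8, a Frizzled receptor like Fzd5, stood at 136 CPM against 11.8, 11.6-fold (10.6 to 12.6), and was 14.7-fold above the Cubn nuclei. Ror1, a receptor of non-canonical Wnt proteins, was 2.62-fold and Fzd6 2.47-fold higher, whereas Fzd3 was at 16.5 CPM against 60.0. Among 9 nuclear and response genes 1 was higher and 3 lower, where 6.6% of all tested genes were higher and 11.6% lower. Tcf7l2 was the higher one, at 1426 CPM against 393, 3.63-fold (3.54 to 3.72). Lef1, a factor of the same family, was at 28.7 CPM against 389, a ratio of 0.0738 (0.0628 to 0.0862). Axin2, a common target of Wnt signalling, was at 22.8 CPM against 47.8, a ratio of 0.478, while Sp5, another target, was at 77.4 against 44.5. Tcf7l2 and Lef1, and likewise Axin2 and Sp5, thus stood on opposite sides of the other nuclei.

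In the Nodal list, which shares Lefty1 and Cer1 with the anterior list, 4 of 14 genes were higher and 3 lower than in the other nuclei, beside 6.6% and 11.6% of all genes. Nodal itself was at 87.1 CPM against 24.4, 3.56-fold (3.23 to 3.92), and Cfc1, a co-receptor, was 2.74-fold higher. Tdgf1, the co-receptor Cripto of the epiblast, was at 37.5 CPM against 165. Lefty2, the inhibitor made in mesoderm, was at 6.65 CPM against 28.1. Members thus held Lefty1 high and Lefty2 low.

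In the BMP list 3 of 20 genes were higher and 8 lower than in the other nuclei, beside the same 6.6% and 11.6% of all genes. Nog, under 5 CPM in the other nuclei, passed the minimum only through members. Bmp5 and Bmp7, under 5 CPM in members, passed it only through the other nuclei, so these counts support nothing by themselves. Bmp2, a ligand, was at 134 CPM against 30.4, 4.40-fold (4.07 to 4.76), and Nog, which encodes the BMP inhibitor noggin, at 23.0 against 2.16, 10.6-fold (8.58 to 13.1). Bmp4 was at 9.34 CPM against 36.8, and the receptor gene Bmpr1b at 6.65 against 135. Bmp6 had the lowest ratio to the Cubn nuclei among the genes named by rank, with 11 UMIs in all members, 1.98 CPM against 132. It passed the minimum only through the Cubn nuclei. In clusters, Bmp6 stood at 262 CPM in cluster 4, 49.4 in cluster 10 and 3.50 in cluster 9. The response gene Id2 was at 62.1 CPM in members against 158 in the other nuclei.

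For Kitl, the list of receptor tyrosine kinase genes and their ligands gave 5 of 22 higher and 6 lower. Erbb4, Pdgfc and Kdr were under 5 CPM in members and passed the minimum only through the other nuclei. The lower count thus supports nothing by itself. Kit, the receptor of Kitl, was at 37.4 CPM against 19.7 in the other nuclei, 1.90-fold, and 2.73-fold above the Cubn nuclei. Igf1r, an insulin-like growth factor receptor, was at 48.1 CPM against 370. For Gckr and Hkdc1, glucose genes gave 4 of 19 higher, the 2 markers among them, and 3 lower. The other 2 higher genes were Slc2a3 and Pygl, of 17 tested, and the counts are to be read against the 6.6% higher and 11.6% lower among all genes. The sum over the list was 1.12 times that of the other nuclei. Slc2a2, a glucose transporter, was 11.7-fold lower than in the Cubn nuclei, at 6.65 CPM against 77.5, whereas the transporter Slc2a3 was at 1460 CPM against 1259. The receptor kinase count likewise includes the marker Kitl.

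For Abca4, retinoid genes gave 8 of 13 higher and 1 lower than in the other nuclei, and 7 higher and 1 lower than in the Cubn nuclei. Without Abca4 the counts were 7 and 6 of 12 higher, beside 6.6% and 4.86% of all genes. Rarb, under 5 CPM in both comparison groups, and Stra6, under 5 CPM in the other nuclei, passed the minimum there only through members. These counts thus support nothing by themselves. Rarb, a retinoic acid receptor, was at 35.6 CPM against 3.38, 10.5-fold (8.87 to 12.4). Stra6, which takes up retinol, was 5.22-fold higher. Cyp26a1, which removes retinoic acid, was given above. Of the 20 S phase genes and the 20 G2 and M phase genes tested, 0 were called higher or lower in either comparison, and they summed to 0.755 and 1.01 times the level of the other nuclei.

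With the 7 markers left out, the highest ratios to the other nuclei belonged to Cd8a, at 20.7 CPM against 0.771, 26.8-fold (20.4 to 35.2), and Rfx6, a transcription factor of gut and pancreatic endoderm, 20.8-fold (18.1 to 23.8). Cd8a, known as a T cell co-receptor, was detected in 24.3% of members and 0.773% of the other nuclei. After thinning the shares were 6.86% and 0.222%. Of the 5 immune genes given above as a sum, Ptprc, Lyz2 and Cd3e had 0 UMIs in members, and Cd68 and Csf1r held all 43. Akr1c19 (19.2-fold), Akr1c13 (16.3), Rgs8 (16.1), Chst15 (15.6) and Itpr2 (15.3) followed. Cd8a, Rfx6, Akr1c19, Akr1c13 and Rgs8 were under 5 CPM in the other nuclei and passed the minimum only through members. Their ranks are a description. Akr1c19 and Akr1c13 belong to a family of related genes, and how reads shared within it were counted was not examined. Against the Cubn nuclei Rgs8, a regulator of G protein signalling, led at 21.1-fold, and Lefty1 (17.2), Cd8a (17.1), Fzd8 (14.7), Myocd (14.4), Irs4 (13.6) and Sv2c (13.4) followed. Among these, Rgs8, Cd8a, Myocd and Sv2c were under 5 CPM in the Cubn nuclei and passed the minimum only through members. Car8, Pappa, Nav3, Klb and Unc5c were among the lowest there. Each was under 5 CPM in members and passed only through the Cubn nuclei, so these ranks too are a description. Klb, the co-receptor for endocrine FGFs, stood at 1.98 CPM against 38.5.

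Promoter accessibility was the independent readout for single genes, counted over peaks from 1000 bases before to 100 after a start. Against the other nuclei 3.36% of 18353 tested promoters were at least 2-fold higher and 10.1% lower, and against the Cubn nuclei 2.64% of 18120 were higher and 5.35% lower. Of the 7 markers 6 had a promoter peak, and together their counts were 1.52 times those of the other nuclei (1.41 to 1.64) and 1.28 times those of the Cubn nuclei (1.18 to 1.38). Hkdc1 was the highest at 4.10-fold (3.14 to 5.29), then Gckr at 3.27-fold (2.14 to 4.82) and Abca4 at 2.49-fold (2.0 to 3.06). Kitl gave 1.58 and Fzd5 1.29. Sfrp5 gave 1.0 (0.765 to 1.29), at 17.9 CPM of peak counts in both groups. Against the Cubn nuclei Abca4 alone passed 2-fold, at 2.73 (2.16 to 3.43). Promoter counts and RNA thus differed most for Sfrp5 and Fzd5, whose RNA ratios by the other 6 genes were 17.1 and 15.4.

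The anterior visceral endoderm promoters summed to 1.72 times the other nuclei (1.63 to 1.82) and 1.65 times the Cubn nuclei (1.56 to 1.75). Cer1 was the highest, 3.92-fold (3.29 to 4.66) and 4.69-fold (3.83 to 5.72). Otx2 was 2.45-fold and Gsc 2.19-fold above the Cubn nuclei, and Hesx1 2.22-fold above the other nuclei. Dkk1, at 1.48-fold, and Sfrp1, at 1.53-fold against the other nuclei, were below 2-fold. Visceral endoderm promoters summed to 2.24 times the other nuclei and 1.11 times the Cubn nuclei. Within that list the Ttr promoter stood at 0.331 times the Cubn nuclei (0.203 to 0.510) and the Afp promoter at 0.199 (0.0640 to 0.470) on 10 counts, while their RNA ratios were 0.907 and 0.924. Endocytic promoters summed to 0.694 times the Cubn nuclei (0.637 to 0.756), with Apoc2 at 0.143, A1cf at 0.153 and Cubn at 0.459. That sum includes Cubn, whose RNA chose the Cubn nuclei, so the Cubn promoter ratio is a description. No promoter sum without Cubn was made. The plot of RNA against promoter ratios sets the lists side by side.

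**Figure D3:**
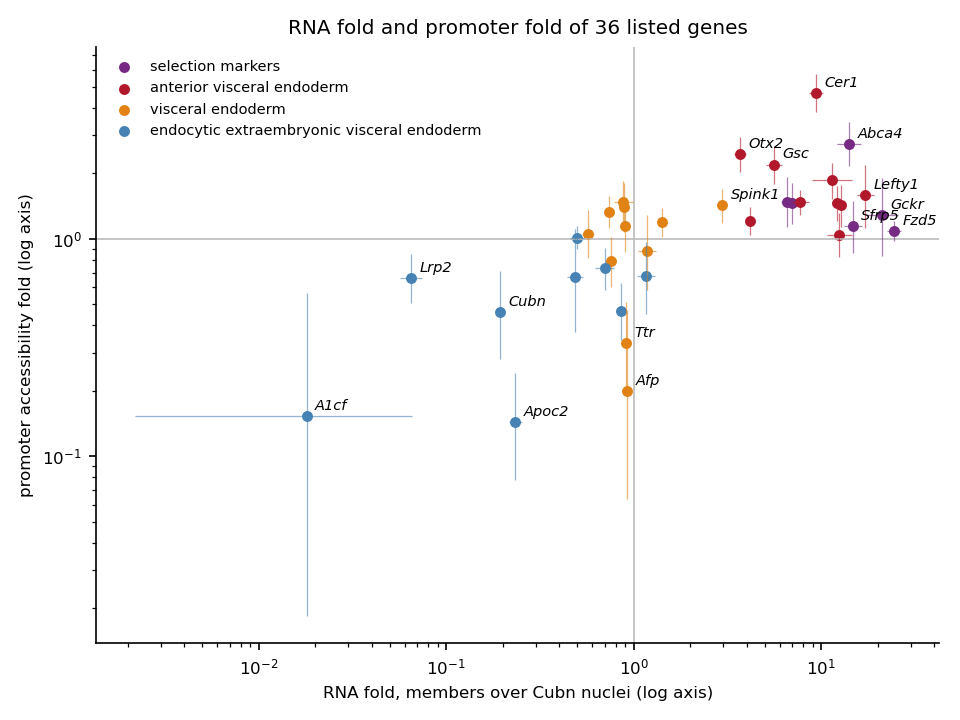
RNA ratio (members over Cubn nuclei, log axis) against promoter accessibility ratio (log axis) for 36 genes of 4 lists, with lines for 95% counting intervals. Cer1 is high in both, at 9.41 for RNA and 4.69 for its promoter, while Ttr and Afp have promoter ratios of 0.331 and 0.199 at RNA ratios of 0.907 and 0.924.

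Of genes with RNA at least 2-fold higher in members than in the other nuclei, 59 of 677 with a tested promoter, 8.71%, also had a promoter at least 2-fold higher, against 0.914% of all 10719 genes tested in both. Against the Cubn nuclei the shares were 6.35% and 0.445%. Most genes with higher RNA therefore had no 2-fold higher promoter. The promoter with the highest ratio to the Cubn nuclei was that of Rbp3, a retinoid-binding protein of the eye, at 12.2-fold (9.0 to 16.6), although members held 1 Rbp3 UMI in all. Dhrs2 (8.91), Smco2 (7.01), Impg1 (6.69) and Pde3a (6.59) followed, and Pabpn1l, at 0.0980, and Pck1, at 0.107, were the lowest. Dhrs2 and Impg1 were under 2 CPM of peak counts in the Cubn nuclei, and Pabpn1l and Pck1 in members. Each of them passed the minimum only through the group where it was higher.

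Promoters at least 2-fold higher in members than in the other nuclei held AGATAA in 18.3% of 322 cases against 6.73% of 13193 tested promoters, and TGTTTAC in 6.52% against 2.61%. TAATTA was found in 8.39% against 2.56%, TAATCC in 11.8% against 5.67% and CAAAGTCCA in 1.55% against 0.417%. Promoters at least 2-fold lower than in the Cubn nuclei also held each motif more often than all tested: AGATAA in 10.8% of 593, TAATCC in 6.91%, TGTTTAC in 4.55%, TAATTA in 4.05% and CAAAGTCCA in 1.01%. In the 242 promoters at least 2-fold higher than in the Cubn nuclei the shares were 16.9%, 12.4%, 7.44%, 9.09% and 1.24% in the same order. The differences between these shares were not tested. Base composition moved with these shares: the median GC content was 49.0% in the higher promoters, 55.3% in the lower and 60.3% in all tested, with a median of 4, 8 and 19 CpG. The part of base composition in the motif shares was not tested.

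A larger share of single peaks than of promoters passed 2-fold. Calls used the ratio alone at a mean of at least 2 CPM of peak counts, and 3.77 CPM stood for 25 counts in members. The part of counting error in this difference was not tested. Of 86373 peaks tested against the other nuclei 22.9% were at least 2-fold higher and 18.6% lower, and of 83649 tested against the Cubn nuclei 19.2% were higher and 14.1% lower. Only 3.90% of the higher peaks overlapped a promoter, against 20.9% of all tested. Within 50000 bases of the 7 markers, 33 of 74 tested peaks, 44.6%, were higher than in the other nuclei and 4 lower, and 23 of 72, 31.9%, were higher than in the Cubn nuclei. The highest peaks near Sfrp5, Fzd5, Foxq1 and Kitl were under 2 CPM in the other nuclei. Such peaks passed the minimum only through members, so these counts support nothing by themselves. Kitl had 7 of 10, Foxq1 5 of 6, Abca4 6 of 15, Sfrp5 5 of 15, Hkdc1 5 of 9, Fzd5 4 of 13 and Gckr 1 of 6 higher than in the other nuclei.

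Sfrp5, whose promoter was no more accessible in members, had its highest nearby peak at chr19:42186515-42187375 (mm10), 15307 bases downstream of its start and inside the gene Zfyve27. It stood at 14.2 CPM of peak counts in members and 0.896 in the other nuclei, 15.8-fold (11.1 to 22.3), and 7.95-fold above the Cubn nuclei. Foxq1 had a peak at chr13:31531135-31532019, 24557 bases upstream and in no annotated gene, 7.88-fold higher (5.61 to 10.9). The Kitl peak at chr10:100034711-100035618, inside Kitl, was 9.17-fold higher (5.92 to 13.8). The Hkdc1 peak at chr10:62420381-62421286, 1658 bases downstream of the start and inside Hkdc1, was 8.62-fold higher (6.62 to 11.1). The Abca4 peak at chr3:122106778-122107613, inside Abca4, was 5.89-fold higher (4.55 to 7.54). For Gckr the highest peak was the promoter peak, 56 bases from the start, at 3.27-fold. The plot of peaks near the markers shows the tested peaks by distance.

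**Figure D4:**
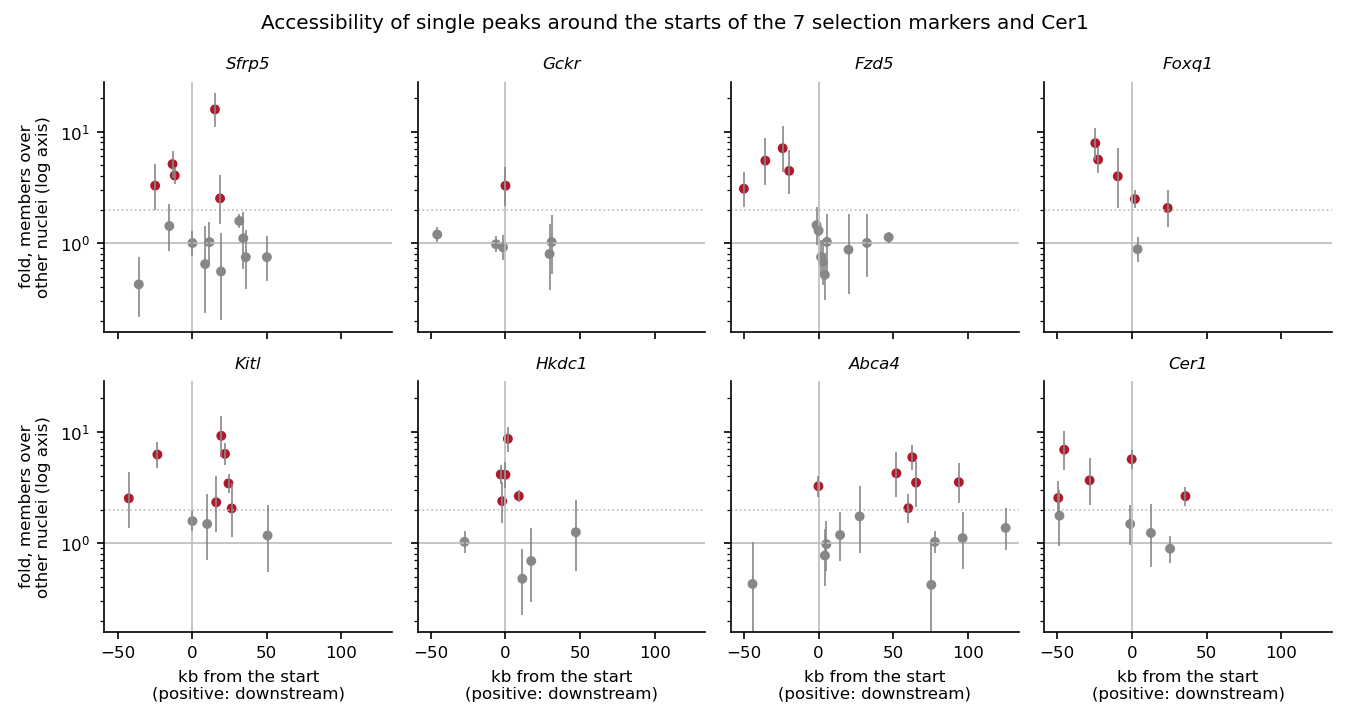
Accessibility ratio of members over other nuclei (log axis) for each tested peak against its distance in kilobases from the lowest listed start of each of the 7 markers and Cer1, downstream positive, with lines for 95% counting intervals, red at 2-fold or more. The Sfrp5 panel has a peak of 15.8-fold at 15307 bases downstream, and 33 of the 74 peaks near the 7 markers are at least 2-fold higher.

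Among all peaks with at least 100 counts in members, the 10 highest ratios included 1 peak whose nearest listed gene was a marker. This peak lay beyond the 50000 bases used above. It was chr1:64811405-64812328, 74115 bases upstream of Fzd5 and inside Plekhm3, at 44.6 CPM of peak counts against 1.57, 28.5-fold (22.8 to 35.5). It was open in 30.3% of members and 1.48% of the other nuclei, and 13.3-fold above the Cubn nuclei. A peak inside Unc13c at chr9:73652596-73653485 was 29.3-fold higher. None of the 10 was at a promoter. All 10 were under 2 CPM of peak counts in the other nuclei and passed the minimum only through members, so their ratios are a description. Of genes with higher RNA than in the other nuclei 85.2% had a non-promoter peak at least 2-fold higher within 50000 bases, against 61.2% of all genes tested. A peak's nearness to a gene does not show that it acts on it.

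The members were not uniform. At a finer clustering of accessibility (resolution 2, giving 30 clusters) 289 members lay in 1 cluster and 53 in another, with median depths of 15681 and 15973 UMIs and 17419 and 22700 peak counts. Anterior visceral endoderm genes summed to 2750 CPM in the larger set and 2041 in the smaller, whereas visceral endoderm genes summed to 9282 and 15184 CPM and endocytic genes to 1231 and 4078 CPM. The median Cubn count was 5 UMIs in the larger and 27 in the smaller set. Doublet calls numbered 5 and 0. Of 7225 genes tested between the sets, 2.16% were at least 2-fold higher in the larger and 2.27% in the smaller.

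Lefty1 separated the sets most sharply among the anterior genes, at 224 CPM in the larger and 7.16 in the smaller, on 1026 and 6 UMIs, 31.3-fold (14.3 to 85.5). Lhx1 was 3.41-fold, Otx2 3.46-fold, Gsc 2.97-fold and Fzd8 6.06-fold higher in the larger set. Mecom, a zinc finger transcription factor, was 10.9-fold and Fgfbp1, a carrier of FGF proteins, 23.2-fold higher there. Dkk1 went the other way, at 281 CPM in the larger and 983 in the smaller set, 3.49-fold lower. Ttr was at 467 and 1622 CPM, Bmp2 at 115 and 244, Rfx6 at 56.5 and 135, and Tfec, a relative of Mitf, at 5.24 and 75.2. Cer1 differed little, at 215 and 177 CPM. Dkk1 was thus higher in the set where Lefty1 was nearly absent. Sfrp5, at 134 and 200 CPM, and Kitl, at 0.980 times, helped choose the members, so their values between the sets are a description.

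**Figure D5:**
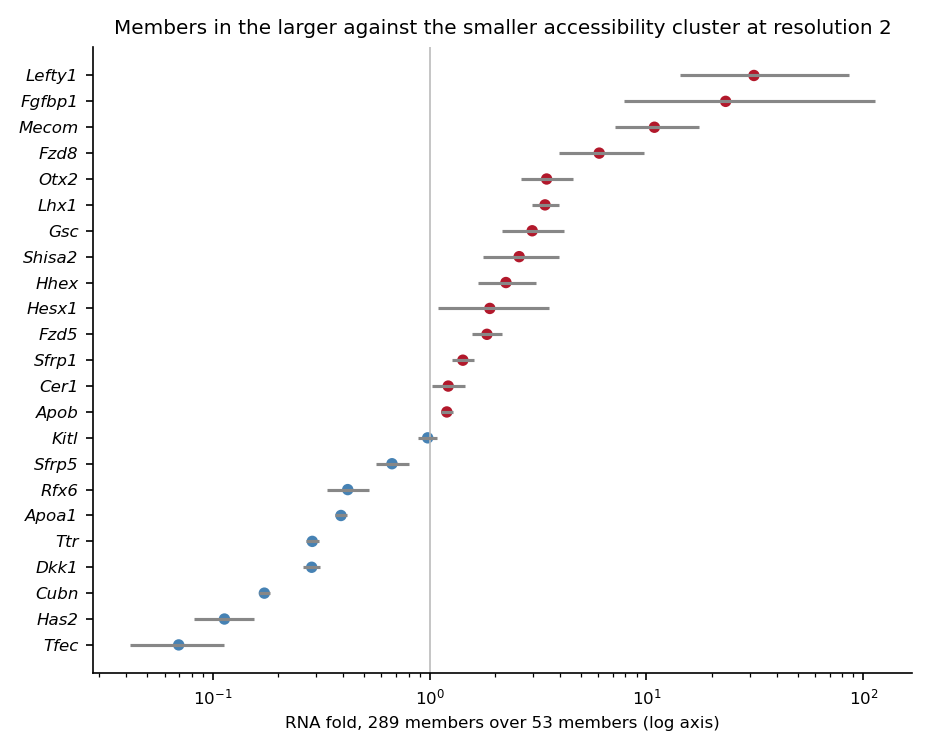
RNA ratio (log axis) of the 289 members in the larger over the 53 members in the smaller accessibility cluster for 23 genes, with lines for 95% counting intervals. Lefty1 lies at 31.3, Cer1 near 1 at 1.22, and Dkk1 at 0.286.

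A split by Cer1 RNA gave sets that differed in depth and did not match the accessibility sets for every gene. The 246 members with a Cer1 UMI had a median of 16508 UMIs and the 104 without one 13334, and their median Cubn counts were 5 and 9. Lefty1 was 9.33-fold (6.75 to 13.3), Hesx1 6.24-fold and Fzd8 3.39-fold higher with Cer1. Dkk1 was also higher with Cer1, at 465 CPM against 222, 2.09-fold (1.85 to 2.36), whereas between the accessibility sets it was lower where Lefty1 was higher. Rfx6 (2.40-fold), Bmp2 (1.80-fold) and Ttr (1.34-fold) likewise ran with Lefty1 here and against it there. Rspo3, a Wnt agonist, was 3.95-fold and Lama1, a laminin chain of basement membrane, 2.41-fold higher without Cer1. The 73 members with fewer than 3 Cubn UMIs had anterior genes at 3550 CPM against 2429 in the other 277. Lefty1 was 3.17-fold and Rgs8 3.66-fold higher in those 73, and Dab2, an endocytic adaptor, was 0.406 times as high. The part of depth and of free RNA in these splits was not tested.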

How the data were processed

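Nuclear RNA and chromatin accessibility were measured in the same nuclei, with 1 library of each assay. The deposited matrix holds raw counts per the file headers: UMIs for 32285 genes and peak counts for 229480 peaks, made with Cell Ranger ARC 2.0.0 on mm10 per the submitters' processing notes. The members and gene lists were chosen with earlier results of these data known. Counts were summed over nuclei and divided by all RNA UMIs or all peak counts (5567400 and 6638275 in members), and ratios carry exact conditional binomial (Clopper-Pearson) intervals at 95%. Since 86.4% of nonzero peak counts were even, their intervals used fragments, the count divided by 2. A gene was called past 2-fold with a mean of at least 5 CPM, a promoter or peak with at least 2 CPM of peak counts. Between the member sets at resolution 2 the minimum mean was 20 CPM. Clusters came from TF-IDF and 30 singular vectors (the first dropped) of 225001 peaks open in at least 50 nuclei, 15 neighbours and leiden at resolution 1 (scanpy 1.11.5, leidenalg 0.10.2, scikit-learn 1.9.0). Scrublet called 1154 of 15341 barcodes doublets (7.52%), which were kept. All barcodes carry 1 library suffix, and each barcode serves both assays. For shares, nuclei were thinned to 3000 UMIs, and none in the depth range was shallower. Genes were named from the 7 markers, the lists, and by rank: the 15 highest RNA ratios, markers left out, against either group and the 15 lowest against the Cubn nuclei, 10 promoters at each end, the 10 highest peaks and the 10 genes most like Sfrp5, above minimum counts and without predicted, mitochondrial or Y-linked genes or the genes of X inactivation; others from the splits of the members were chosen after their values were seen. Intervals for RNA ratios and shares were tried on simulated counts that held only the counting error they assume. Variation between nuclei was not simulated, nor were the intervals on peak fragments. Python 3.11.15, numpy 2.4.6, scipy 1.17.1 and pandas 2.3.3 were used.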

Additional observations from a re-analysis of the deposited data

How the results depend on the processing

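No direction reversed under any alternative tried. The anterior list ratio to the other nuclei, 5.02, was 4.92 and 4.48 with the 200 and 500 highest scores, 4.86 with minimums of 5000, 4.39 with a score on thinned counts and 6.77 without members holding 3 or more Cubn UMIs. Without Sfrp5, Fzd5, Foxq1, Kitl or Hkdc1 in the score it was 4.69, 4.25, 4.90, 5.17 and 4.79. The endocytic ratio to the Cubn nuclei without Cubn, 0.387, was 0.425 with 500 members, 0.369 without doublet calls, 0.404 with minimums of 5000, 0.439 with the thinned score and 0.257 without members holding 3 or more Cubn UMIs. It was 0.423, 0.400 and 0.400 without Fzd5, Hkdc1 or Abca4 in the score, and 0.291 against nuclei with at least 10 Cubn UMIs. Genes called higher numbered 744 against the other nuclei and 539 against the Cubn nuclei, 470 and 313 at a minimum of 20 CPM, and 2348 and 2075 with no minimum beyond 1 UMI in each group. The share of members in their main cluster, 96.3%, was 98.9% at resolution 0.5, 82.6% at resolution 2, and 98.5% and 88.4% with 200 and 500 members. The thinned score kept 258 of the 350 members. No paired analysis was possible because each assay has 1 library. With 1 pooled library, embryos and conditions could not be compared.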
